A study of Homo sapiens with 9 samples.

Results

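The integrins and laminins are the receptors that hold epithelial cells to their basement membrane and the cross-shaped proteins that build it. They were followed here at the RNA level in T47D, a long-established luminal breast cancer line of human origin. Members were the genes whose symbol marks an integrin alpha subunit, an integrin beta subunit or a numbered protein named for binding one, or a laminin alpha, beta or gamma chain, where an array probe set carried that 1 symbol alone. The rule found 38 genes among the 18417 with a probe set of their own, and each had 1 probe set. They were 17 alpha subunits, 8 beta subunits, 3 proteins named for binding a beta subunit and 10 laminin chains. ITGA1 shared its probe set with PELO and was not counted (6.46, 6.49 and 6.62 on average in vehicle, progestin and progestin plus doxycycline). LAMA3 and ITGB1BP3 were not analysed here.

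An integrin is a pair of 1 alpha and 1 beta subunit that spans the membrane, and the pair decides which matrix protein it holds. A laminin is a trimer of an alpha, a beta and a gamma chain that self-assembles into the sheet of the basement membrane. In the mammary gland, contact of luminal cells with laminin through integrins is known to be needed for polarity and milk production.

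All 9 arrays came from T47D-pHUSH-Elf5-shRNA cells, which were infected with a retroviral vector whose hairpin RNA, switched on by doxycycline, targets ELF5, an ETS-family transcription factor of the alveolar lineage. Every group therefore carried the vector, and the cells were kept under puromycin. The 3 groups of 3 arrays were ethanol vehicle, 10 nM of the synthetic progestin ORG2058 for 4 days, and the same progestin with doxycycline at 0.1 µg/ml for 4 days. The study asked how far ELF5 mediates the progestin response. No array had doxycycline without progestin or a control hairpin, so an effect of doxycycline itself and an effect of the hairpin cannot be told apart. The time in culture of the vehicle cells is not stated, each array held cells pooled from wells, and no p-value here covers more than the scatter among the arrays, which may be technical. A batch that coincided with a group cannot be told apart from the treatment.

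Each array gave 1 log2 signal per probe set, in the authors' deposited table. The level of one probe set cannot be read against another's as an amount of RNA, so changes are taken within a probe set. Levels enter only as a rough split at a median over probe sets, given below. ELF5, the hairpin's target, was at 10.3, 10.2 and 10.0 with vehicle, at 11.3, 11.2 and 11.3 with progestin, and at 10.4, 10.5 and 10.3 with doxycycline added. Signals of different probe sets are not on 1 scale, so the label was checked only roughly: 9 of 10 measured luminal markers had a mean signal above the median of all single-symbol probe sets (7.24). Leukocyte markers had 1 of 7 above it, fibroblast markers 1 of 7, basal or myoepithelial markers 1 of 6 and endothelial markers 2 of 6. With progestin, 1 of the luminal markers rose and 4 fell, among them PGR, the progesterone receptor (-2.28). Of the basal markers 2 rose and 1 fell, 2 endothelial markers rose, 1 fibroblast marker fell, and 0 of the 7 leukocyte and 4 platelet markers were called. Of all probe sets, 13.4% rose and 15.6% fell. Array means of the luminal list ran from 11.06 to 11.15 with vehicle, 10.74 to 10.79 with progestin and 10.77 to 10.87 with doxycycline, and those of the basal list from 6.32 to 6.47, 6.47 to 6.59 and 6.39 to 6.64. The endothelial list ran from 6.21 to 6.43, 6.32 to 6.46 and 6.18 to 6.46, and the fibroblast list from 5.40 to 5.77, 3.62 to 5.49 and 5.20 to 5.42. The 3.62 rests on a single value of LUM, at -10.32 in progestin replicate 3 beside 2.86 and 2.48 in the other progestin arrays. The luminal means include PGR, whose change with progestin was the lowest of the 10 markers. The median change of these 10 with progestin was -0.11, and 4 had a positive change. With doxycycline added to progestin 0 markers of any list were called. The part of these shifts in the members' changes was not tested. In such bulk RNA, fewer cells of a type and less RNA per cell cannot be told apart.

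Of the 38 genes, 14 lay above that median level by their mean over all arrays and 24 at or below it. Their values ran from 2.55 to 10.83, and 0 lay below 0. A gene is called changed at an adjusted p under 0.05 in limma, with Benjamini-Hochberg adjustment over all 21214 probe sets that carry a symbol. SE stands for that model's standard error of a log2 change.

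The promoters of the 4 genes on which the results turn most are shown first, as 250 bases before the annotated start. ITGA10 and ITGB6 had the largest rise and fall with progestin, and LAMB2 and LAMC1 are laminin chains that moved in opposite directions with it. The sequences are RefSeq's for the assembly GRCh38.p14, on the gene's own strand, with matches to searched motifs in capitals. They lie at chr1:145910051-145910300 (minus strand, ITGA10), chr2:160200273-160200522 (minus strand, ITGB6), chr3:49133051-49133300 (minus strand, LAMB2) and chr1:183023170-183023419 (plus strand, LAMC1).
ITGA10: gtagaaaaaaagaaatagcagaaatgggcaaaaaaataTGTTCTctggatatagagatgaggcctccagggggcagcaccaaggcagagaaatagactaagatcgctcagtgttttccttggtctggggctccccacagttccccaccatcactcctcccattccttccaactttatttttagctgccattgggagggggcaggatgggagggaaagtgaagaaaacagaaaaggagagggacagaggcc
ITGB6: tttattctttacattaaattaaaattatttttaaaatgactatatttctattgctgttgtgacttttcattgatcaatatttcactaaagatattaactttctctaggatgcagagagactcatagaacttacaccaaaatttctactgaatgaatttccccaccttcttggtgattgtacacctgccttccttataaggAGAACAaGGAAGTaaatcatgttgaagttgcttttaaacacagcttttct
LAMB2: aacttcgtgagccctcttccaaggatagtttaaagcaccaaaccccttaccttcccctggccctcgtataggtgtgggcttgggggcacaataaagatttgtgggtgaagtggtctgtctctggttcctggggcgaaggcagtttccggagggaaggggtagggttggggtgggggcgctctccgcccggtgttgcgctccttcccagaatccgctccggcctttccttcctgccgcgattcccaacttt
LAMC1: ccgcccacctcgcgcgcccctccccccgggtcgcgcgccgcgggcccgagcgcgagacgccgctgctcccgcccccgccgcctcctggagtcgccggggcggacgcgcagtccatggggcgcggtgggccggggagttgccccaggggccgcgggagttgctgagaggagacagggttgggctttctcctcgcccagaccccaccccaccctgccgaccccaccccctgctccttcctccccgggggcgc
The searched motifs were TGTTCT, the half-site that the progesterone receptor shares with other steroid receptors, and GGAAGT, a core that ETS factors such as ELF5 can bind, each on both strands. ITGA10 held TGTTCT starting 212 bases before its start, and ITGB6 held it on the opposite strand, as AGAACA, at 50 bases, next to GGAAGT at 43 bases. LAMB2 and LAMC1 held neither in this window. Over 27305 genes, 14.8% had TGTTCT and 23.0% had GGAAGT in a promoter of this length. Among the 27 members with an entry, TGTTCT lay in 4 (ITGA10, ITGA6, ITGB6 and LAMB3) and GGAAGT in 7 (ITGA11, ITGAV, ITGB1, ITGB1BP1, ITGB5, ITGB6 and ITGB7). A match is a run of letters and not a measured binding site. The promoters also differed in composition: the GC content was 30.0% with 0 CpG for ITGB6, 48.4% with 1 for ITGA10, 58.4% with 12 for LAMB2 and 79.6% with 32 for LAMC1, against a median of 58.0% over all promoters.

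Progestin against vehicle asked which adhesion genes move after 4 days of hormone. ITGB6, the beta subunit of an epithelial integrin that activates latent TGF-beta, fell 3.39-fold. ITGB5, ITGA5 and the laminin chains LAMA5, LAMB1, LAMB3 and LAMC1 fell too. ITGA10, a collagen-binding alpha subunit, rose 2.69-fold, LAMB2 rose 1.69-fold and ITGA3, an alpha subunit that binds laminin, rose 1.59-fold. In all, 9 of 38 genes fell (23.7%) and 3 rose (7.89%), where 15.6% of all probe sets fell and 13.4% rose. With array weights in the fit 19 genes were called, 6 higher and 13 lower, and that setting called 22.1% of all probe sets higher and 22.7% lower. The median change was -0.04 on the log2 scale against 0.02 over all probe sets. Arrays were fully separate and higher with progestin for 5 genes and lower for 11, beside 4403 and 4568 of 21214 probe sets. Among the 14 genes above the median level, 6 fell (42.9%) and 2 rose (14.3%), with a median change of -0.27, against 23.5% and 18.6% and a median of -0.01 for all single-symbol probe sets above it.

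**Figure D1:**
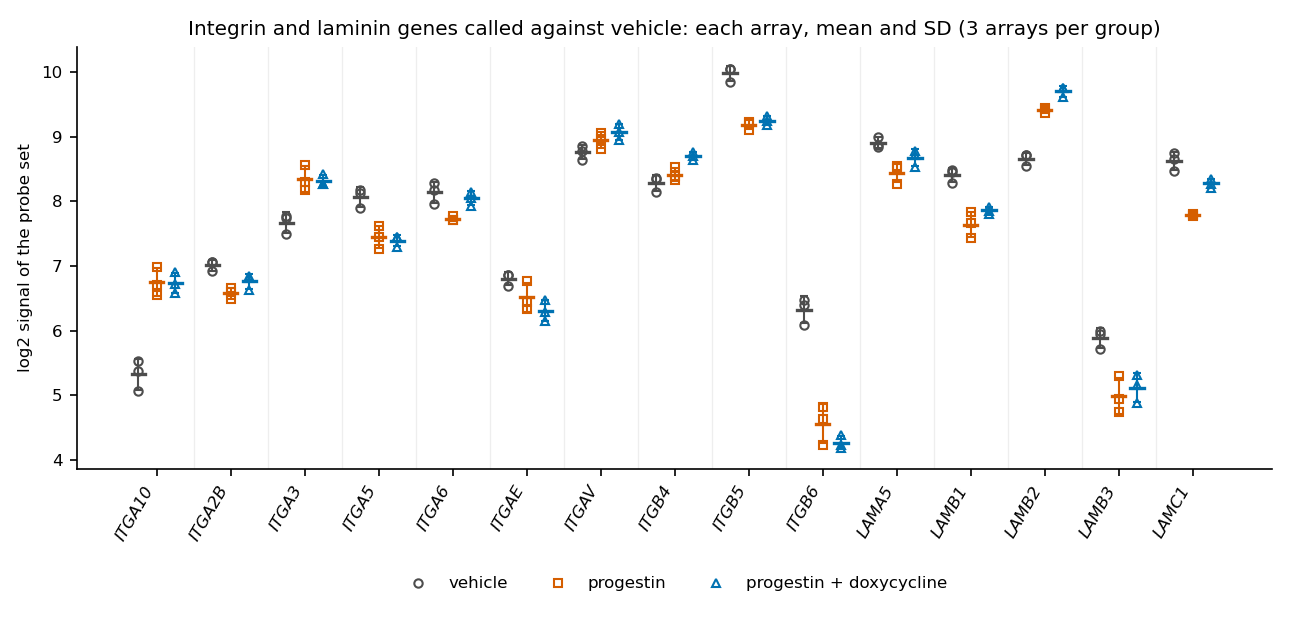
Log2 signal of the 15 integrin and laminin genes called in either comparison with vehicle, with each array as an open symbol, the group mean as a dash and the SD over 3 arrays as a bar. ITGA10, ITGA3 and LAMB2 stand higher in both progestin groups than in vehicle, and ITGB6, ITGB5, LAMB1 and LAMB3 stand lower; LAMC1 with doxycycline lies between the other groups.

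The laminin-binding alpha subunits went in opposite directions. ITGA3 stood at 7.78, 7.75 and 7.49 with vehicle and at 8.29, 8.17 and 8.56 with progestin, a change of 0.67 (SE 0.12, limma adjusted p = 0.00417). ITGA6, which also forms the core of the hemidesmosome with ITGB4, went from 8.18, 8.28 and 7.96 to 7.71, 7.72 and 7.77, a change of -0.41 (SE 0.10, limma adjusted p = 0.0145). For both genes the arrays of the groups did not overlap. The call of ITGA6 was lost without vehicle replicate 1 (adjusted p = 0.0538) or without vehicle replicate 2 (adjusted p = 0.0515). ITGA7, the laminin receptor of muscle, changed by 0.07 (95% interval -0.37 to 0.50) and was not called.

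Of the 3 measured collagen-binding alpha subunits, ITGA10 alone was called. It is best known from cartilage, where it is the collagen receptor of chondrocytes. Its vehicle arrays were at 5.06, 5.53 and 5.38 and its progestin arrays at 6.70, 6.56 and 6.99, a change of 1.43 (SE 0.16, limma adjusted p = 0.000249). The lowest progestin array was thus over 1 log2 unit above the highest vehicle array. These were low signals, and with 16 added to the linear signal the change was 1.14. ITGA2, the alpha subunit of the main epithelial collagen receptor, changed by -0.27 (95% interval -0.59 to 0.04), and ITGA11 by 0.14 (-0.12 to 0.40).

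Alpha subunits that recognise the RGD sequence include the fibronectin receptor subunit ITGA5. Its arrays went from 8.13, 8.17 and 7.89 to 7.27, 7.45 and 7.61, a change of -0.62 (SE 0.11, limma adjusted p = 0.00426). ITGA2B, known as the alpha subunit of the platelet fibrinogen receptor, went from 7.06, 6.91 and 7.06 to 6.59, 6.49 and 6.65 (-0.44, SE 0.09, limma adjusted p = 0.00633). Both sets of arrays were separate. ITGA2B lay below the median level here, and 0 of 4 measured platelet markers were above it. ITGAV, the partner of several beta subunits, changed by 0.19 (95% interval -0.04 to 0.41), and ITGA8, the nephronectin receptor subunit, by -0.09 (-0.70 to 0.52).

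The 5 leukocyte alpha subunits (ITGAD, ITGAE, ITGAL, ITGAM and ITGAX) all lay at or below the median level and 0 were called, as did ITGA4 and ITGA9. Of the 5, ITGAD had the lowest adjusted p (0.106, limma) with a change of 0.35. PTPRC, the pan-leukocyte gene, had values from 3.00 to 4.14 over the 9 arrays. Array means of the 7 measured leukocyte markers ran from 5.14 to 5.51 with vehicle, from 5.41 to 5.69 with progestin and from 5.16 to 5.46 with doxycycline.

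Among the 8 beta subunits 2 fell and 0 rose, where 15.6% of all probe sets fell and 13.4% rose. ITGB6 went from 6.48, 6.40 and 6.08 to 4.63, 4.23 and 4.82, a change of -1.76 (SE 0.16, limma adjusted p = 0.000101). Its progestin arrays were low values, and with 16 added to the linear signal the change was -1.27. ITGB5, a partner of ITGAV in binding vitronectin, went from 10.04, 10.04 and 9.85 to 9.22, 9.11 and 9.23 (-0.79, SE 0.08, limma adjusted p = 0.000193). The 3 progestin arrays of each gene lay below all its vehicle arrays. ITGB1, the shared partner of most alpha subunits, had separate arrays as well (10.81, 10.79 and 10.76 against 10.66, 10.45 and 10.62) but did not pass the test (-0.21, SE 0.09, limma adjusted p = 0.11). ITGB4 changed by 0.13 (95% interval -0.08 to 0.33), and ITGB2, ITGB3, ITGB7 and ITGB8 lay below the median level without a call. None of ITGB1BP1, ITGB1BP2 and ITGB3BP was called, with changes of -0.27, -0.12 and 0.01.

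Among the 10 laminin chains 4 fell and 1 rose, where 15.6% of all probe sets fell and 13.4% rose. The beta chains went both ways. LAMB1, the beta chain of the widespread laminins, went from 8.45, 8.48 and 8.28 to 7.66, 7.43 and 7.83 (-0.77, SE 0.11, limma adjusted p = 0.00108). LAMB2, its counterpart in muscle, kidney and nerve basement membranes, went the other way, from 8.71, 8.71 and 8.55 to 9.42, 9.37 and 9.45 (0.76, SE 0.08, limma adjusted p = 0.000164). LAMB1 thus fell 1.70-fold and LAMB2 rose 1.69-fold, with separate arrays in each case. LAMB3, the beta chain of the laminin that anchors hemidesmosomes, went from 5.94, 5.71 and 5.996 to 5.29, 4.74 and 4.93 (-0.89, SE 0.17, limma adjusted p = 0.00447). With 16 added to the linear signal its change was -0.65. LAMB4 had the largest fall among laminins (-1.01) but scattered from 2.55 to 4.08 with progestin and was not called (limma adjusted p = 0.087).

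LAMC1, the gamma chain of most laminins, fell 1.78-fold. Its vehicle arrays were at 8.74, 8.65 and 8.47 and its progestin arrays at 7.79, 7.78 and 7.81 (-0.83, SE 0.08, limma adjusted p = 0.000163). LAMA5, the main alpha chain of adult epithelial basement membranes, went from 8.86, 8.85 and 8.998 to 8.55, 8.27 and 8.51 (-0.46, SE 0.10, limma adjusted p = 0.0113). LAMA5, LAMB1 and LAMC1 can form 1 trimer together, and each of the 3 fell with separate arrays. LAMA1, LAMA2 and LAMA4, at or below the median level, changed by 0.29, 0.21 and 0.03 without a call. LAMC3, above it, changed by 0.10 (95% interval -0.21 to 0.42).

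**Figure D2:**
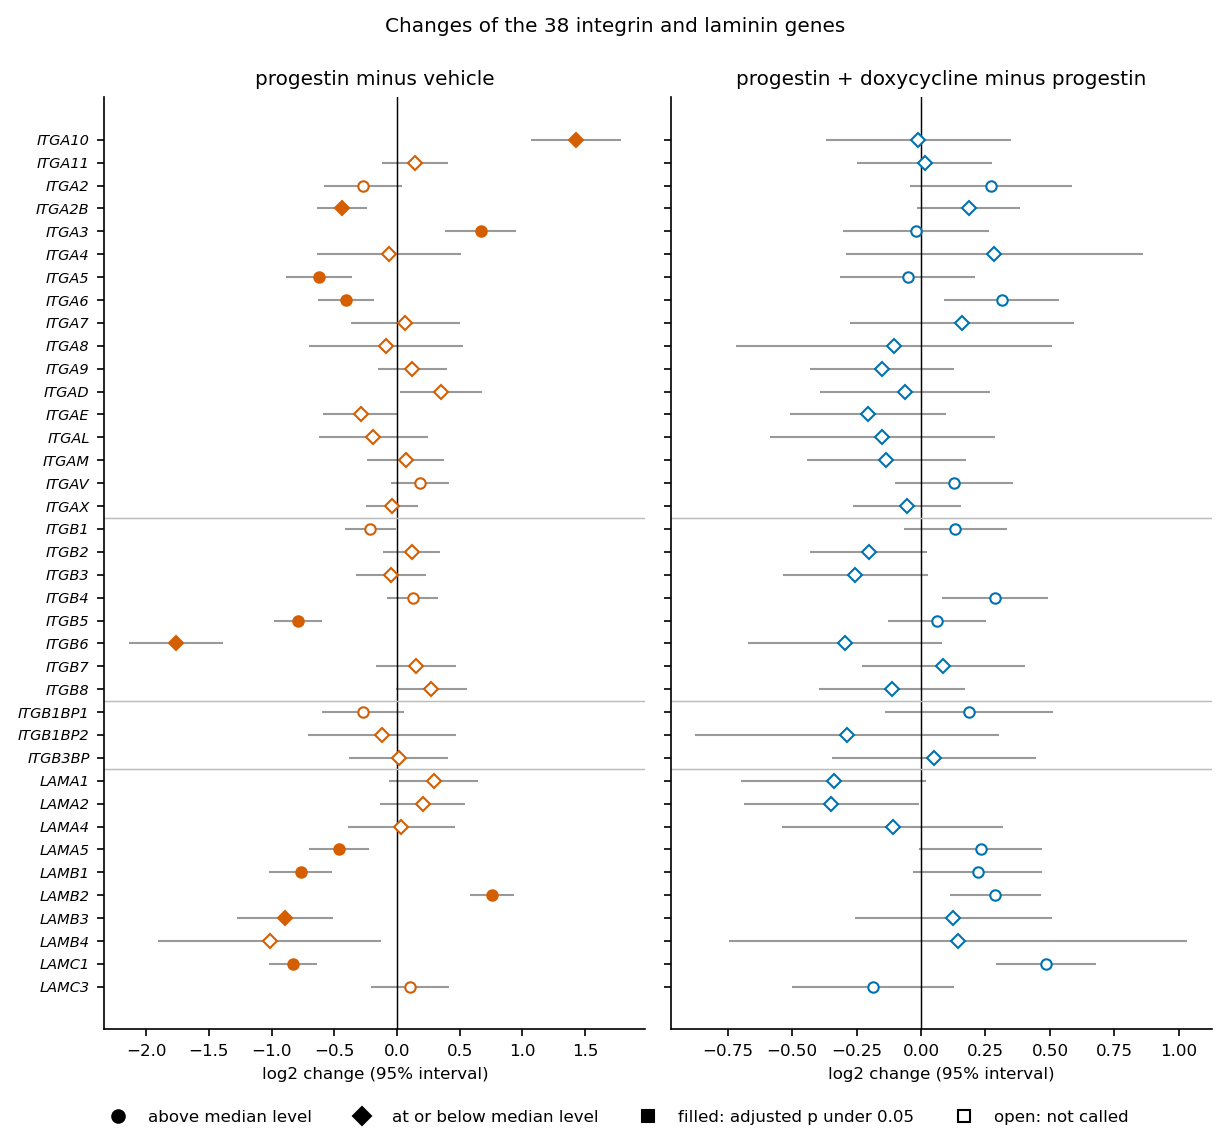
Log2 change of each of the 38 genes with its 95% interval from limma, for progestin minus vehicle (left) and progestin plus doxycycline minus progestin (right), on different horizontal scales. Filled symbols mark the 12 genes called on the left, and 0 are filled on the right, where the interval of LAMC1 (0.29 to 0.68) lies farthest above 0.

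Adding doxycycline to progestin asked what changes when the hairpin against ELF5 is induced. No integrin or laminin gene passed the test, and over all probe sets 4 of 21214 did (0.0189% in either direction). The gene nearest to a call was LAMC1, with a 1.40-fold higher level. At an unadjusted p under 0.05, 5 of 38 genes and 2969 of 21214 probe sets differed. The median change of the 38 was 0.00 against 0.03 over all probe sets, and 19 of them had a positive change. Arrays were fully separate and higher with doxycycline for 4 genes (LAMC1, ITGA6, LAMB2 and ITGB4), where 14.8% of all probe sets were so, and fully separate and lower for 3 (ITGB1BP2, ITGB3 and LAMA1), where 6.43% were so. Both shares are near those of all probe sets. These comparisons share the progestin arrays with the progestin comparison above, and the values of each are given side by side with no test of their relation.

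LAMC1 with doxycycline stood at 8.21, 8.35 and 8.26, above its 3 progestin arrays and below its 3 vehicle arrays. Its change of 0.48 (SE 0.08, 95% interval 0.29 to 0.68) had a limma adjusted p of 0.12, which ran from 0.00625 to 0.37 over the alternatives. It passed with a variance trend and robust estimation (0.00625) and without the dimmest 25% of probe sets (0.0437), where 0.88% of the probe sets left were called higher. LAMB2, with arrays at 9.61, 9.75 and 9.75, changed by 0.29 (SE 0.08, limma adjusted p = 0.18) and passed with a variance trend and robust estimation (0.043). That setting called 2 of 38 genes higher, LAMC1 and LAMB2, and 2.25% of all probe sets higher. For LAMC1 the change with doxycycline ran against the change with progestin, and for LAMB2 the change had the same sign.

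The subunits of the hemidesmosome integrin had similar values. ITGA6 with doxycycline stood at 8.06, 8.15 and 7.93 (0.31, SE 0.10, limma adjusted p = 0.223). ITGB4, at 8.39, 8.32 and 8.52 with progestin, stood at 8.64, 8.76 and 8.70 with doxycycline (0.29, SE 0.09, limma adjusted p = 0.223). Neither passed, although all 3 doxycycline arrays of each gene were above its progestin arrays.

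The other genes with the largest changes among those above the median level had overlapping arrays. ITGA2 was at 7.45, 7.19 and 7.51 with progestin and at 7.49, 7.83 and 7.64 with doxycycline (0.27, SE 0.14, limma adjusted p = 0.424). LAMA5 with doxycycline was at 8.52, 8.72 and 8.78 (0.23, adjusted p = 0.373), and LAMB1 at 7.81, 7.92 and 7.85 (0.22, adjusted p = 0.415). ITGB1BP1, a cytoplasmic protein that binds the tail of ITGB1, was at 7.55, 7.37 and 7.97 and then at 7.80, 7.90 and 7.76 (0.19, adjusted p = 0.606). ITGB1 was at 10.69, 10.83 and 10.60 with doxycycline (0.13, adjusted p = 0.547). LAMC3, a gamma chain of narrower tissue distribution, was the 1 gene of these 10 with a negative change, from 8.44, 8.46 and 8.37 to 8.42, 7.94 and 8.35 (-0.19, adjusted p = 0.595). Each of these 6 values depended on single arrays. Without progestin replicate 2 the change was 0.17 for ITGA2, 0.14 for LAMA5, 0.12 for LAMB1, 0.06 for ITGB1BP1 and 0.07 for ITGB1, and without progestin replicate 3 it was 0.36 for ITGB1BP1. Without doxycycline replicate 2 it was 0.07 for ITGB1 and -0.04 for LAMC3.

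Of the members called with progestin, ITGA10, ITGA3, ITGB5, ITGA5, ITGB6, LAMA5, LAMB1, LAMB3 and ITGA2B had 95% intervals with doxycycline that include 0. Those of LAMC1 (0.29 to 0.68), LAMB2 (0.11 to 0.46) and ITGA6 (0.09 to 0.54) did not, and none of these genes was called. ITGA10 with doxycycline was at 6.59, 6.90 and 6.72 (change -0.01, 95% interval -0.37 to 0.35), and ITGA3 at 8.26, 8.42 and 8.27 (-0.02, -0.30 to 0.26). ITGB5 was at 9.23, 9.32 and 9.18 (0.06, -0.13 to 0.25), and ITGA5 at 7.45, 7.44 and 7.29 (-0.05, -0.32 to 0.21). ITGB6 was at 4.18, 4.23 and 4.38 (-0.29, -0.67 to 0.08), and 2 of these arrays lay above its lowest progestin array. These intervals do not show that the levels were equal, only which changes the 3 arrays leave possible. LAMB3 (4.88, 5.15 and 5.32, a change of 0.13) and ITGA2B (6.81, 6.63 and 6.84, a change of 0.18) had small positive changes without a call.

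Direction went with level. With doxycycline, 11 of the 14 genes above the median level had a positive change (78.6%, median 0.20), against 63.6% and a median of 0.05 for all single-symbol probe sets above it. Of the 24 genes at or below it, 8 had a positive change (33.3%, median -0.11), against 47.6% and a median of -0.01. The split was not tested for the members.

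Among all genes above the median level, longer ones had more positive changes with doxycycline, so the members' lengths are given beside their changes. Length is here the span of the gene on GRCh38.p14 with introns, since transcript lengths were not used. All 38 members and 99.8% of the single-symbol probe sets had one. Above the median level, the median change with doxycycline rose over 5 span classes of all genes from -0.02 and 0.01 to 0.04, 0.08 and 0.14, and the share with a positive change from 42.3% and 53.8% to 62.5%, 73.2% and 82.2%. With progestin the medians over the same classes were 0.06, 0.02, -0.03, -0.05 and -0.04. Of the 14 members above the median level, 5 lay in the longest class (over 85.2 kb) and 4 of these had a positive change. Another 5 lay in the next class (35.3 to 85.2 kb) and all 5 had one. In the class from 16.2 to 35.3 kb it was 1 of 3, in the class from 6.1 to 16.2 kb 1 of 1, and the shortest class held 0 of the 14.

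LAMC1, at 122.2 kb, lay in the longest class and its change (0.48) was above that class's median of 0.14. LAMB2, at 11.9 kb, is the 1 member above the median level in a class of short genes, and its change of 0.29 stands beside a class median of 0.01. ITGA6 (79.1 kb) and ITGB4 (36.4 kb) lay in the class with a median of 0.08. Among genes at or below the median level the class medians were -0.04, -0.04, 0.00, 0.00 and 0.01, and the longest member, LAMA2 at 633.4 kb, had the lowest change of the 38 (-0.35, SE 0.15, limma adjusted p = 0.349). The part of gene or transcript length in these changes was not tested.

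**Figure D3:**
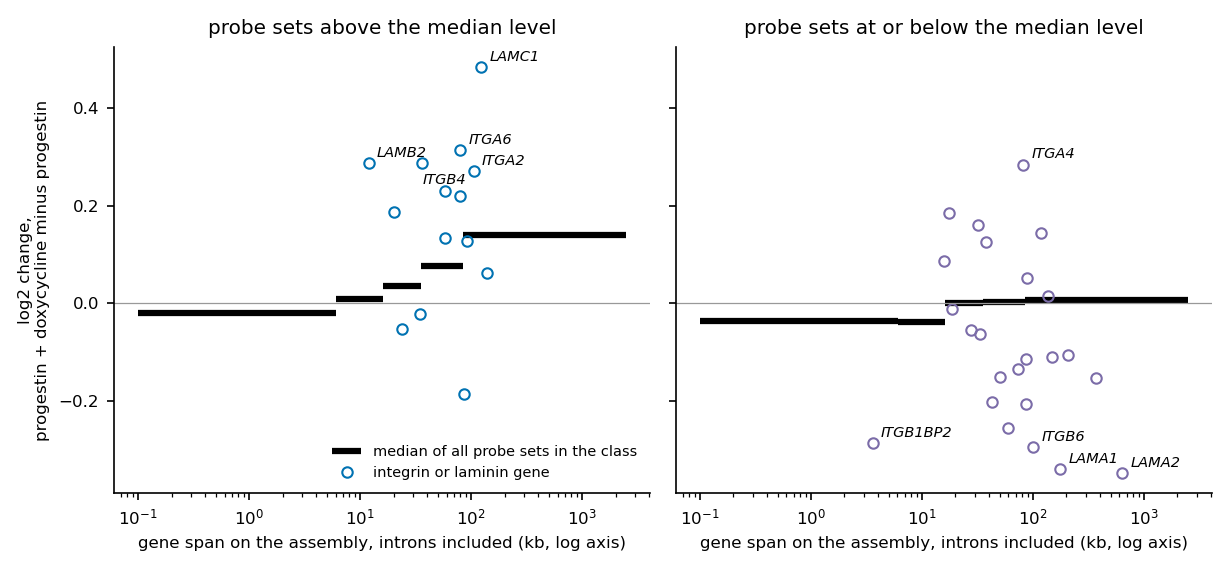
Log2 change with doxycycline on top of progestin against gene span in kb on a log axis, for the 14 genes above the median level (left) and the 24 at or below it (right); black bars are the medians of all single-symbol probe sets in 5 span classes. On the left the bars climb from -0.02 to 0.14 and LAMC1 is the highest point; on the right the bars stay between -0.04 and 0.01.

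Progestin plus doxycycline against vehicle used the same vehicle arrays as the first comparison and showed what remained. Of the 38 genes 12 were called, 5 higher and 7 lower. The higher ones made 13.2% of the members, against 15.6% of all probe sets, and the lower ones 18.4% against 12.5%. With array weights 17 were called, 6 higher and 11 lower, beside 21.2% and 20.2% of all probe sets. ITGA10 (1.42), ITGA3 (0.65) and LAMB2 (1.05, SE 0.08, limma adjusted p = 2.36e-05) stayed higher, and ITGB6 (-2.06, SE 0.16, limma adjusted p = 3.81e-05), ITGB5 (-0.73), ITGA5 (-0.67), LAMB1 (-0.55), LAMB3 (-0.77) and LAMC1 (-0.35, SE 0.08, limma adjusted p = 0.0156) stayed lower. The call of LAMC1 was lost without vehicle replicate 1 (adjusted p = 0.0619), vehicle replicate 2 (0.0526) or doxycycline replicate 1 (0.0596).

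ITGB4, ITGAV and ITGAE were called here and not with progestin alone, which is no test that the responses differ. ITGB4 was higher, with vehicle arrays at 8.37, 8.35 and 8.14 (0.41, SE 0.09, limma adjusted p = 0.00878). ITGAV was at 8.77, 8.86 and 8.64 with vehicle, 8.96, 8.81 and 9.06 with progestin and 9.07, 9.19 and 8.95 with doxycycline (0.31, SE 0.10, limma adjusted p = 0.0486), and its call was lost under 9 of 18 alternatives, among them each vehicle array left out in turn (adjusted p up to 0.127), progestin replicate 1 (0.0748) and doxycycline replicate 1 (0.111) or 2 (0.151). ITGAE, the alpha subunit that lets lymphocytes hold E-cadherin, was lower. Its arrays were at 6.69, 6.87 and 6.86 with vehicle, 6.45, 6.33 and 6.76 with progestin and 6.15, 6.48 and 6.29 with doxycycline (-0.50, SE 0.13, limma adjusted p = 0.0227). That call was lost without doxycycline replicate 1 (0.0794) or 3 (0.0655) and without vehicle replicate 2 (0.0723) or 3 (0.0642).

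The other 3 genes that had fallen with progestin were not called against vehicle once doxycycline was added, which again is no test that the responses differ. ITGA6 differed from vehicle by -0.09 (95% interval -0.32 to 0.13), LAMA5 by -0.23 (-0.47 to 0.01) and ITGA2B by -0.25 (-0.45 to -0.05, limma adjusted p = 0.0657). For LAMA5 and ITGA2B all doxycycline arrays lay below all vehicle arrays, as for 11 of the 38 members and 3897 of 21214 probe sets.

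The integrins and laminins work with adaptors, kinases, tetraspanins and other matrix proteins, and 79 of 85 listed partner genes were measured. With progestin 16 rose (20.3%) and 17 fell (21.5%), with a median change of 0.04, beside 13.4% and 15.6% of all probe sets and 18.6% and 23.5% of the single-symbol ones above the median level. With doxycycline added to progestin 0 of the 79 were called, and 18 had an unadjusted p under 0.05, beside 2969 of all 21214 probe sets. A positive change was seen in 48 (60.8%, against 56.1% of all probe sets), and the median was 0.06. Against vehicle, the cells with progestin and doxycycline had 25 partners higher (31.6%) and 11 lower (13.9%), beside 15.6% and 12.5% of all probe sets and 22.7% and 18.9% of those above the median level.

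Among 21 measured activators and adaptors of the integrin tail 7 rose with progestin (33.3%) and 4 fell (19.0%), beside 13.4% and 15.6% of all probe sets. TNS3, a tensin that links integrin tails to actin, rose by 1.57 (SE 0.09), and PARVA, a parvin of the ILK complex, by 0.74 (SE 0.08), while VCL, the actin linker vinculin, fell by 0.62 (SE 0.09). With doxycycline 19 of these 21 had a positive change (90.5%, median 0.13) and 0 were called, where 56.1% of all probe sets and 63.6% of those above the median level had a positive change. Gene span was not compared for this list. Of the 8 measured adhesion kinases 1 rose (12.5%) and 3 fell (37.5%) with progestin, beside the same shares of all probe sets, 13.4% and 15.6%.

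Of 12 measured hemidesmosome and laminin-binding partners 5 rose and 3 fell with progestin. Of all probe sets 13.4% rose and 15.6% fell, and of the single-symbol ones above the median level 18.6% rose and 23.5% fell. The tetraspanins CD9 (0.53, SE 0.08), CD151 (0.53, SE 0.08) and CD82 (0.47, SE 0.08), of which CD151 is known to bind the laminin receptors directly, rose. SGCE, a sarcoglycan of the dystrophin complex, fell by 0.98 (SE 0.10). With doxycycline the smallest p values in this list belonged to cytoskeletal linkers. DST, which ties keratins to hemidesmosomes, was at 6.85, 6.74 and 6.87 with progestin and at 7.16, 7.46 and 7.34 with doxycycline (0.50, SE 0.09, limma adjusted p = 0.12). DMD, which ties laminin-bound dystroglycan to actin, changed by 0.37 (SE 0.07, limma adjusted p = 0.12), and neither was called.

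Of the 15 basement membrane partners 1 rose (6.67%) and 1 fell (6.67%) with progestin, beside 13.4% and 15.6% of all probe sets. NTN4, a netrin that binds laminin gamma chains and disrupts laminin networks, rose by 1.75 (SE 0.20, limma adjusted p = 0.000282), from 7.21, 7.41 and 6.54 to 8.78, 8.75 and 8.88, and stood at 8.97, 9.05 and 8.93 with doxycycline. Among 23 other integrin ligands 2 rose (8.7%) and 6 fell (26.1%) with progestin, beside the same shares of all probe sets. NPNT, the nephronectin ligand of ITGA8, fell by 2.57 (SE 0.12), from 9.34, 9.51 and 9.16 to 6.86, 6.54 and 6.89, and stood at 6.63, 6.79 and 6.74 with doxycycline. FN1, the fibronectin held by ITGA5, fell by 1.42 (SE 0.10). THBS1, a thrombospondin, fell by 0.64 (SE 0.08), and LTBP1, which anchors latent TGF-beta in the matrix, by 0.55 (SE 0.08). With doxycycline added to progestin, FN1 changed by 0.54 (SE 0.10), LTBP1 by 0.39 (SE 0.08) and THBS1 by 0.27 (SE 0.08). None of them was called. Of the 23 ligands 8 had a positive change with doxycycline (34.8%), beside 56.1% of all probe sets.

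With both agents against vehicle, the called partners with the smallest p on the higher side were TNS3 (1.63), NTN4 (1.93), PARVA (0.76), CD9 (0.62), PLEC (0.60), the plectin that joins ITGB4 to keratins, and CD151 (0.59). On the lower side they were NPNT (-2.62), SGCE (-0.91), FN1 (-0.88), SGCB (-0.59), LIMS1 (-0.53), an adaptor of the ILK complex, and THBS1 (-0.37). The SE of these changes ran from 0.08 to 0.20.

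**Figure D4:**
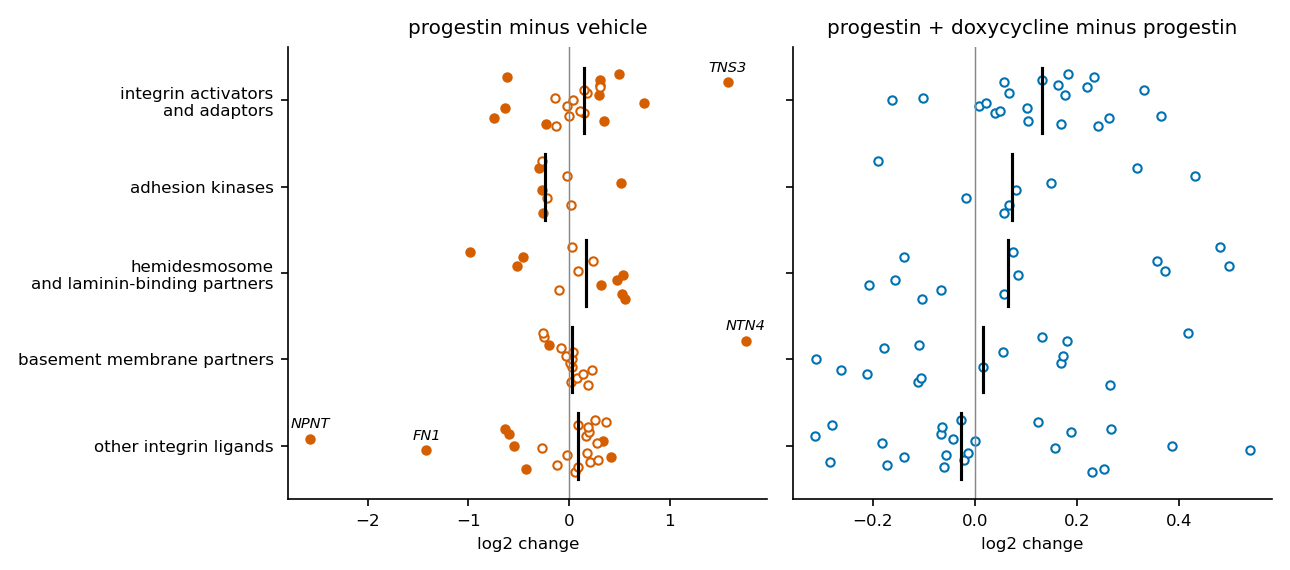
Log2 change of the 79 measured partner genes by list, for progestin minus vehicle (left) and progestin plus doxycycline minus progestin (right), on different horizontal scales; filled circles passed an adjusted p of 0.05 in limma and black bars are list medians. On the left NTN4 and TNS3 lie farthest to the right and NPNT and FN1 farthest to the left; on the right 0 are filled, and the adaptors' median is 0.13.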

How the data were processed

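The values are log2 signals, 1 per probe set and array, as deposited by the authors. The submitters' processing notes name PLIER, limma, Affymetrix Power Tools and Affymetrix Expression Console without versions or roles; background correction, normalization and genome build are not given in the sources used here. Signals that PLIER brings near 0 become strongly negative on the log2 scale. None of the member values was below 0, but 307 values of all probe sets with a symbol were. Those probe sets entered the shared variance estimate and the p adjustment used for the members.

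Of 33297 probe sets, 21214 carried a symbol in the platform annotation (19460 with 1, 1754 with several) and were tested, and 12083 carried none. Samples were grouped by their titles. With limma 3.58.1 in R 4.3.3, 1 mean per group was fitted over all 9 arrays with moderated variances, which leaves 6 residual degrees of freedom. The median residual SD was 0.151 and the median SE of a change 0.12, so 3 arrays per group limit the precision, and an exact permutation test of 3 against 3 cannot go below p = 0.1. The fit was tested on simulated data.

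Values by array are given for members called in any comparison and for the 10 with the largest change with doxycycline among those above the median level. Partners are named by smallest p, up to 6 in each direction, or the 2 smallest where none passed. The members, partner lists and markers were chosen with earlier results of these data known. The plan named coding length. No protein or transcript lengths were used here, and the gene span of the RefSeq table for GRCh38.p14 took its place. Alternatives changed the normalization, centring, variance model, weights, filter, added constant, arrays fitted and probe set rule.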

Additional observations from a re-analysis of the deposited data

How the results depend on the processing

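Over 18 alternatives, 11 of the 12 calls with progestin and 9 of the 12 calls of progestin plus doxycycline against vehicle held wherever the gene was tested, and no direction was reversed. Without the dimmest 25% of probe sets, 25 members were tested, and ITGB6 and LAMB3 were not among them. For progestin against vehicle, array weights called 19 members, 6 higher and 13 lower, in place of 12, and 22.1% of all probe sets higher and 22.7% lower in place of 13.4% and 15.6%; for both agents against vehicle they called 17 in place of 12. For doxycycline added to progestin, a variance trend with robust estimation called 2 and leaving out the dimmest 25% of probe sets called 1, in place of 0. With 1 array left out, the calls numbered 11 to 14 with progestin, 0 with doxycycline added to it and 9 to 13 for both agents against vehicle, and 11 to 13 of the members above the median level had a positive change with doxycycline. The replicate numbers gave no clear pairing of the arrays. Correlations of the deviations of same-numbered arrays ran from -0.262 to 0.395, and those of different-numbered arrays from -0.462 to 0.285. The highest were same-numbered arrays of vehicle and of progestin plus doxycycline (0.395 and 0.362), so a pairing of these groups is not settled. A fit with the replicate block called 12, 0 and 12 members. Apart from the single genes named with the results, the cause of these shifts was not tested. Arrays give no depth. For low signals such as those of LAMB4 and LAMA2, an array's own scatter limits what can be seen.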
